A study of Carassius auratus with 9 samples.

Results

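Heat shock proteins and chaperones were examined in the muscle of Hefang crucian carp, a cultured crucian carp listed as Carassius auratus, after 8 weeks on 3 diets. A gene was counted as a member when its name in the gene table held heat shock, dnaJ homolog, T-complex protein 1, alpha-crystallin, unc-45, endoplasmin, calreticulin or calnexin, and genes for heat shock factor-binding protein were left out. No measured value entered this choice, which gave 252 of the 76298 genes in the table. No member carried the older name of the endoplasmic chaperone BiP, which the rule also lists. Of the 252 members, 235 had at least 1 read in some library, 17 had none, and 199 passed the filter on low counts and were tested. The filter asks for enough reads in as many libraries as a diet has, so a low gene can pass it through the diet in which it is high, and the 199 do not stand for all members.

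The LA group received a commercial feed with no addition, the MA group the same feed with 1.7% DL-methionine and 3.4% L-lysine, and the HA group the same feed with 3.4% of each. Every group had 3 muscle libraries, for 9 in all, and the diets MA and HA therefore differed from LA in both amino acids and from each other in methionine alone. Fish were fasted before dissection, and neither the labels nor the methods name a heat or other acute stress. The libraries of a group are described as biological replicates, but which fish or tank each came from is not given.

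Chaperones bind unfolded or partly folded proteins and keep them from clumping. HSP70 binds short exposed stretches of a chain and is driven by J-domain proteins, which bring clients and start ATP breakdown, while HSP90 finishes the folding of kinases, receptors and, together with UNC45B, of the myosin head in striated muscle. The ring-shaped chaperonin CCT folds actin and tubulin in the cytosol, small heat shock proteins hold unfolded chains without using ATP and sit on the Z-disc and on desmin in muscle, and calreticulin, calnexin and endoplasmin fold secreted and membrane proteins in the endoplasmic or sarcoplasmic reticulum. Heat shock factors switch on the inducible members of these families.

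Total counts per library ranged from 13962770 to 17177610, and the normalization factors (TMM) from 0.890 to 1.15. Marker genes of fast muscle summed to 298804 to 412746 CPM (counts scaled to a common library size after TMM), those of liver to 8.93 to 12.5 CPM. Libraries did not vary freely within a diet. Where libraries 1 and 2 of a diet were 8-fold or more apart, library 3 lay between them for 99.0% of genes or more, although such a wide gap by itself favours this. Without this choice of genes, library 3 lay between the others in all 3 diets at once for 23.6% of the tested genes and 31.7% of the tested members. LA1 and HA2, although from different diets, were the most alike of all pairs of libraries, and the typical tested member differed between them by 0.180 on the log2 scale (median of absolute values, 199 genes). In LA1, MA2 and HA2 the study's sequencing statistics list the lowest share of mapped reads of the diet. Some results that rest on LA1 or HA2 are also given without these libraries, and few are given without MA2.

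Chaperone genes took between 0.312% and 0.485% of all counts. The share was 0.485%, 0.321% and 0.385% in LA1, LA2 and LA3, 0.312%, 0.467% and 0.393% in MA1, MA2 and MA3, and 0.381%, 0.461% and 0.429% in HA1, HA2 and HA3. The diets overlapped fully, and in each of them the library with the lowest share of mapped reads had the highest share of chaperone counts. Levels of different genes were compared only as FPKM, the count scaled to gene length and library size. The median tested member had a mean of 2.33 FPKM, against 0.982 FPKM for the median of all tested genes. Only 2 members passed a mean of 100 FPKM, the heat shock cognate LOC113114922 (208 FPKM) and the alpha-crystallin B copy LOC113114933 (180 FPKM), 45 reached 10 FPKM, and 102 stayed under 1 FPKM. The 36 members that had reads but failed the filter had means of at most 1.20 FPKM.

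**Figure D1:**
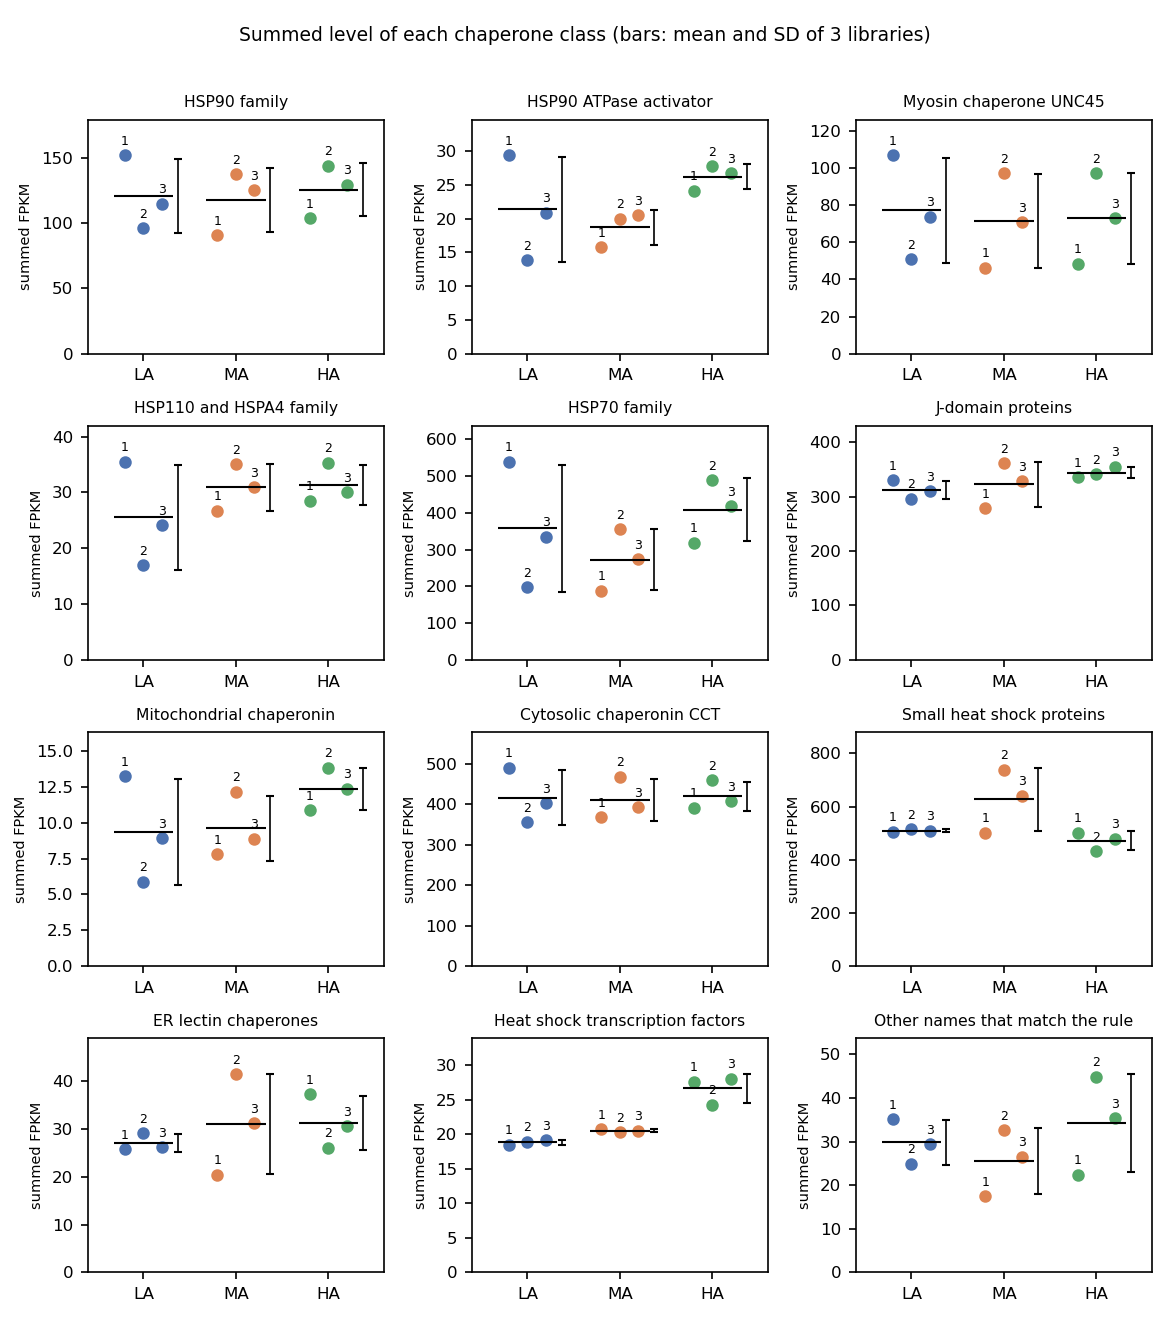
Summed FPKM of the members of each of 12 classes (vertical axes, starting at 0) in the 3 libraries of each diet (numbered points), with the mean (line) and SD (bracket). HSP70, UNC45 and CCT genes differed more between the libraries of a diet than between diets, whereas heat shock transcription factors summed to 24.3 to 28.1 FPKM in HA and to 18.5 to 20.7 FPKM in the other groups. FPKM carry no TMM factor. In CPM these genes summed to 59.2 to 62.7 in HA and to 45.8 to 56.5 in the other groups.

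The question put to each pair of diets was whether added methionine and lysine changed chaperone mRNA. Under edgeR's quasi-likelihood test at an adjusted p under 0.05, no member was called in any comparison. For MA against LA, 0 of 199 members were called, where 0.0919% of the 23946 tested genes were. For HA against LA the counts were 0 members and 0% of all genes. For HA against MA they were 0 members and 0.0501%, and for the 3 diets together 0 members and 0.0835%. At an unadjusted p under 0.05, 13 members were higher and 14 lower in MA than in LA, which is 13.6% of the members against 11.4% of all genes. The same count for HA against LA was 7 higher and 7 lower, 7.04% against 6.22%. HA against MA gave 22 higher and 12 lower, 17.1% against 9.97%, and 29 members (14.6%) stood under 0.05 in the test of the 3 diets together, against 10.7% of all genes.

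The fitted differences of the whole list were centred close to those of all genes. The median log2 fold change of the tested members was -0.02 for MA against LA, 0.08 for HA against LA and 0.11 for HA against MA, beside -0.03, -0.01 and 0.02 for all tested genes. Without LA1 the first of these became 0.13 and the second 0.22. Libraries of the 2 diets did not overlap in 31 members for MA against LA (14 higher, 17 lower), which is 15.6% where all genes gave 16.7%. The share was 9.55% of members for HA against LA, where all genes gave 10.1%, and 23.6% for HA against MA, where all genes gave 17.7%.

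**Figure D2:**
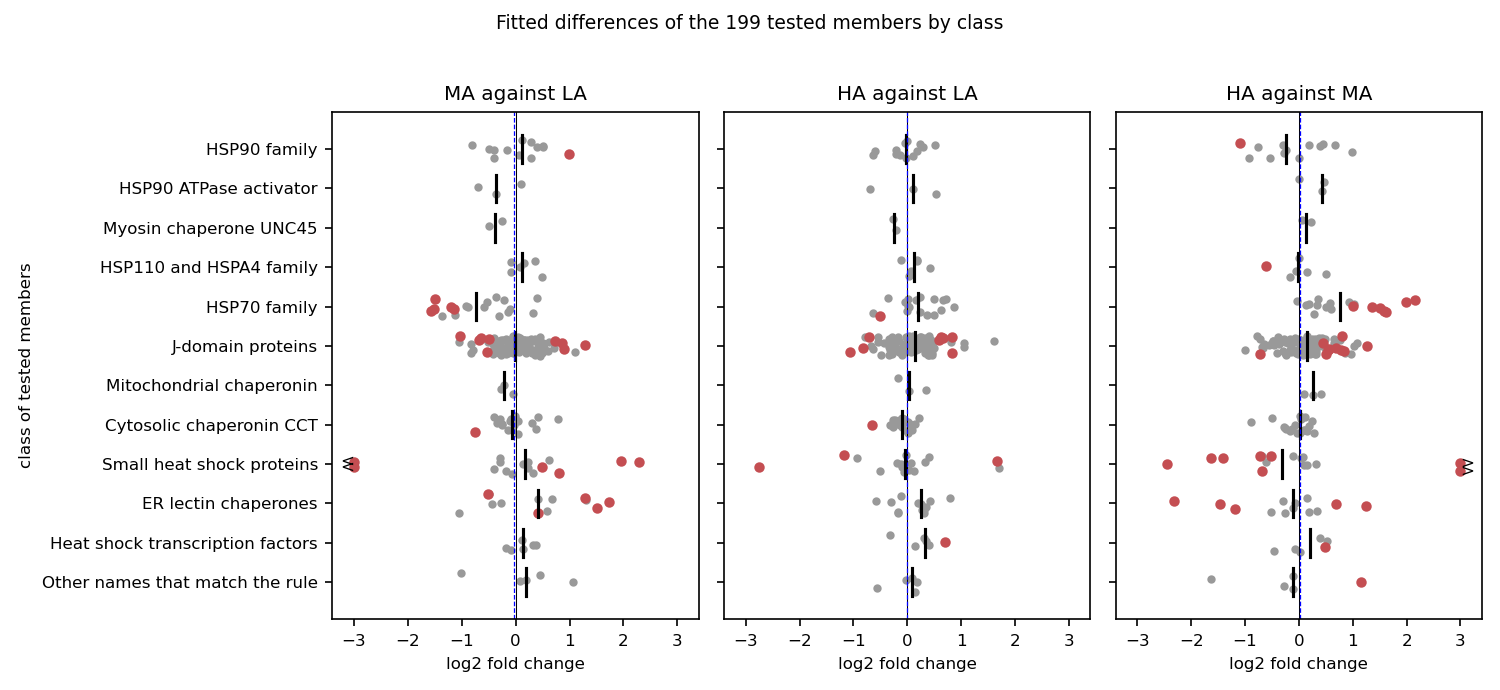
Fitted log2 fold changes (horizontal axes) of the 199 tested members by class (rows) in the 3 comparisons, with class medians (black bars), the median of all tested genes (dashed line), and members with an unadjusted p under 0.05 in red. Values beyond 3 are drawn at 3 with an arrow. In the HSP70 row 16 of 18 points lie below 0 for MA against LA and 17 of 18 above 0 for HA against MA.

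Calls depended on the method. DESeq2 called 6 members for MA against LA (1.84% of all genes), 1 for HA against LA (0.217%) and 10 for HA against MA (1.24%). With neither LA1 nor HA2 in the fit, edgeR called 7, 2 and 5 members, where 2.69%, 1.26% and 0.65% of all genes were called. With the rank of the mapped share as a block, it called 2, 0 and 2 members, and 0.576%, 0.0167% and 0.493% of all genes. Some of these counts hold genes that passed the filter on low counts only through the libraries in which they are high. LOC113049801 is among those of DESeq2 for MA against LA. LOC113057413 is among those of each of these settings for HA against MA. It and LOC113057387 are among those with neither LA1 nor HA2 for MA against LA. The counts are therefore not read as a result about the members.

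The HSP70 family had the class medians farthest from 0 in MA, at -0.74 on the log2 scale against LA, and 0.76 for HA against MA, over 18 tested genes. Of its 21 genes, 9 have the plain names heat shock 70 kDa protein or heat shock 70 kDa protein 1, with or without the ending -like. Without that ending, these names belong to the stress-inducible cytosolic form in fish and mammals. Whether these 9 copies are inducible was not tested. This group was set apart by name after values had been seen. All 9 copies had a lower fitted level in MA than in LA, with log2 fold changes of -1.57 to -0.22, and all 9 a higher level in HA than in MA, at 0.93 to 2.16. Summed over the 9 copies, levels were 196, 233 and 200 CPM in LA1, LA2 and LA3, 122, 44.5 and 84.1 CPM in MA1, MA2 and MA3, and 257, 202 and 236 CPM in HA1, HA2 and HA3. The MA libraries were thus below all others, with MA2 lowest, while LA and HA overlapped.

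Among all members, LOC113107614 (chromosome 8, 21547900 to 21550428, plus strand) had the smallest p for MA against LA. It stood at 12.7, 11 and 10.7 CPM in the LA libraries, 2.88, 4.87 and 4.22 in MA and 7.39, 8.40 and 8.36 in HA. No 2 diets overlapped, and the order was LA, HA, MA. The log2 fold change was -1.52 (SE 0.22, adjusted p = 0.0502) for MA against LA, -0.51 (SE 0.22, adjusted p = 0.793) for HA against LA and 1.01 (SE 0.22, adjusted p = 0.189) for HA against MA. The first of these lay just outside the threshold, and over 18 alternative settings its adjusted p ran from 5.85e-06 to 1.00 and passed in 7. It was called without LA1 (adjusted p = 0.0259) and without MA1 (adjusted p = 0.0439), but not when any other library was left out.

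A second chromosome 8 copy, LOC113107563 (20874531 to 20877183, minus strand), lies entirely within a gene for S-adenosylhomocysteine hydrolase-like protein 1 on the same strand, which had 83 reads in all libraries against 2121. It measured 14.4, 20.4 and 19.6 CPM in LA, 6.40, 7.91 and 9.37 CPM in MA, and 27.5, 14.7 and 18.8 CPM in HA. MA lay below both other diets, which overlapped. Its log2 fold changes were -1.20 (SE 0.27, adjusted p = 0.160) for MA against LA and 1.36 (SE 0.27, adjusted p = 0.159) for HA against MA, and DESeq2 called both.

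Other copies of this group sit close together. On chromosome 28, LOC113046943, LOC113046945 and LOC113046944 follow each other from 14929761 to 14944755 with 4681 and 2393 bases between them, and on chromosome 3, LOC113047268 and LOC113047258 are 1048 bases apart (9882263 to 9888645). Such copies can be nearly identical, and how reads that fit several of them were counted is not given, so the split between copies is less certain than their sum. LOC113046944 was the most abundant of the 9, at a mean of 39.9 FPKM, 10.6 times its neighbour LOC113046945.

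LOC113046944 measured 105, 129 and 110 CPM in LA, 64.7, 12.3 and 39.1 CPM in MA and 117, 114 and 118 CPM in HA. The 3 HA libraries were nearly equal, while MA2 and MA1 differed widely. Its log2 fold change was -1.57 (SE 0.46, adjusted p = 0.251) for MA against LA and 1.59 (SE 0.46, adjusted p = 0.314) for HA against MA.

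LOC113046945 stood at 12.3, 5.07 and 6.45 CPM in LA, 5.56, 1.88 and 3.35 CPM in MA and 15.1, 11.2 and 17.0 CPM in HA. HA exceeded MA without overlap, by 2.00 on the log2 scale (SE 0.43, adjusted p = 0.185). LOC113047258 on chromosome 3 gave the largest difference between HA and MA in the group, 2.16 (SE 0.51, adjusted p = 0.246), from 18.2, 21.9 and 18.4 CPM in HA against 6.97, 1.56 and 4.53 CPM in MA.

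The remaining 4 copies were LOC113093942, LOC113046943, LOC113047268 and LOC113044026, and the last 2 separated HA from MA without overlap. In total 7 of the 9 did so, where 17.7% of all genes did not overlap in either direction, and 4 of the 9 separated MA from LA, where 16.7% of all genes did. Both counts describe a group set apart after its values were seen. LOC113093942 had MA libraries inside the range of LA, at 12.2, 12.2 and 11.8 CPM against 8.60, 21.6 and 12 CPM. Its HA libraries measured 33.3, 9.16 and 26.6 CPM, so HA2 lay below every MA library. With all libraries in the fit, its difference between HA and MA did not pass. With neither LA1 nor HA2 it was 1.31 (adjusted p = 0.0482), but that fit leaves out the HA library that goes the other way.

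**Figure D3:**
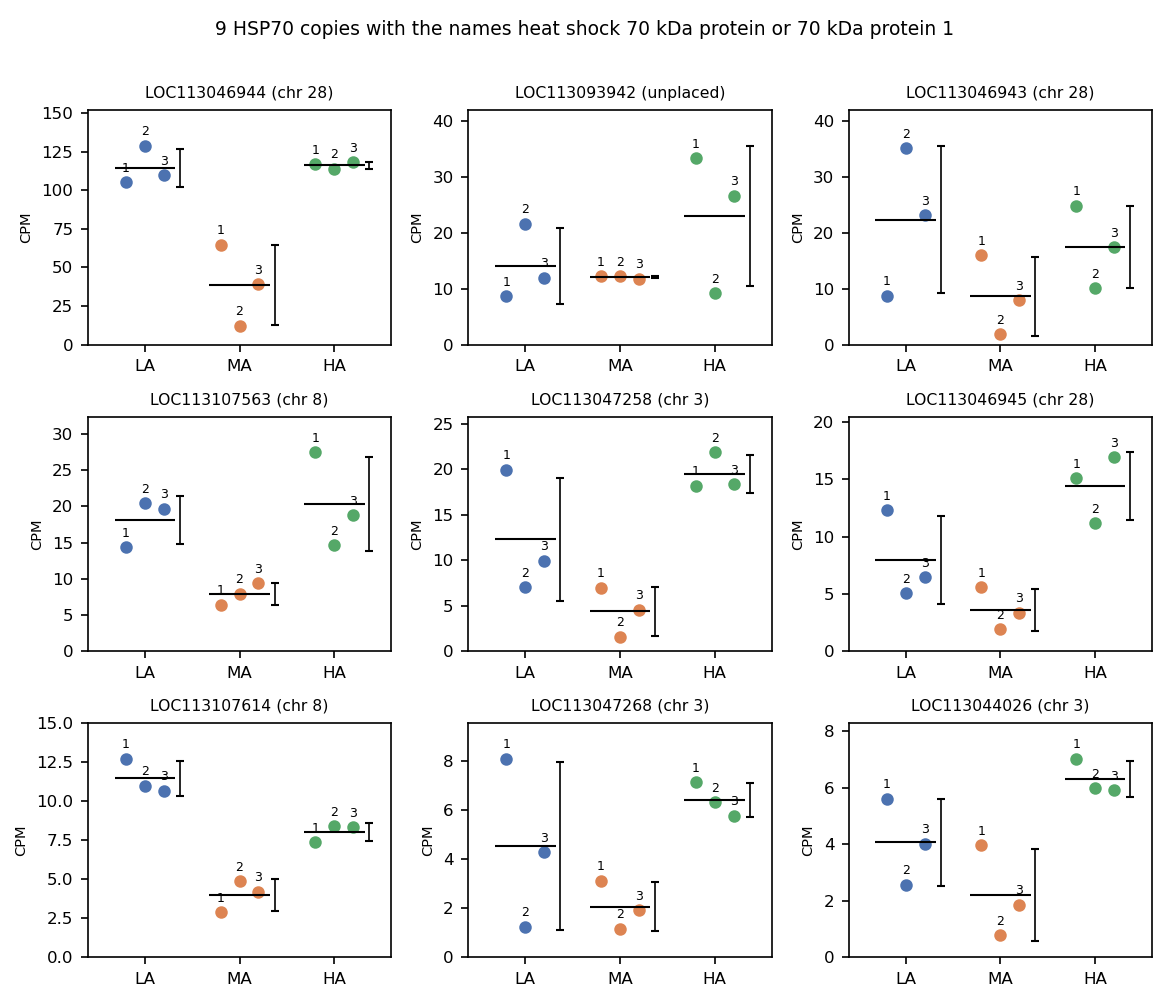
CPM (vertical axes, starting at 0) of the 9 HSP70 copies with the plain heat shock 70 kDa names in the 3 libraries of each diet (numbered points), with mean and SD. In 7 of the 9 panels every HA point lies above every MA point, and LOC113046944 ranges from 12.3 to 64.7 CPM in MA against 105 to 129 CPM in the other groups.

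Nerve and myelin markers also set MA apart, higher where the HSP70 copies were lower. All 15 genes of that list were detected and summed to 360 to 460 CPM in MA, 218 to 243 CPM in LA and 240 to 276 CPM in HA. In MA they stood at 360, 460 and 401 CPM in MA1, MA2 and MA3. Their part in the HSP70 result was not tested. In bulk muscle, fewer cells of a type and less RNA per cell cannot be told apart.

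Constitutive HSP70, named heat shock cognate 71 kDa protein, is made by all cells and carries most of the HSP70 mRNA of unstressed tissue. In all 4 of its copies LA1 was the highest LA library and HA2 the highest HA library. LOC113114922 (chromosome 15, 7901643 to 7908115, plus strand) stood at 1019, 188 and 504 CPM in LA1, LA2 and LA3, at 279, 634 and 461 CPM in MA1, MA2 and MA3, and at 339, 844 and 563 CPM in HA1, HA2 and HA3. Highest and lowest differed 5.43-fold within LA, 2.27-fold within MA and 2.49-fold within HA. The difference between MA and LA was -0.32 on the log2 scale (SE 0.57, adjusted p = 0.885), so that a change of either sign was not detectable at this spread.

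LOC113074643 on an unplaced scaffold spread 8.09-fold within LA (162, 20.0 and 75 CPM) and 4.43-fold within HA (33.1, 147 and 76.3 CPM), but only 1.07-fold within MA (55.3, 55.9 and 59.4 CPM). LOC113109905 ranged from 25.3 to 106 CPM in LA, 36.1 to 53.8 CPM in MA and 28.0 to 97.3 CPM in HA. Both copies overlap short unnamed genes that had at most 1 read each. The minor copy LOC113058379 separated HA (4.09, 5.85 and 4.71 CPM) from MA (2.49, 3.83 and 3.35 CPM) without overlap, by 0.60 (SE 0.31, adjusted p = 0.574), and overlapped with both in LA. The inducible names held from 5.99% of the family's FPKM in MA2 to 50.4% in LA2.

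HSP90-alpha 1 is the form that works on myosin in fish muscle. In LA and in HA, but not in MA, its most abundant copy had the order of libraries seen for the cognate LOC113114922. LOC113081521 measured 154, 50.6 and 83.2 CPM in LA, 61.1, 64.4 and 77.5 CPM in MA, and 46.0, 140 and 92.1 CPM in HA. A second copy, LOC113094108, ranged from 63.1 to 141 CPM in LA, 57.2 to 86.2 CPM in MA and 51.3 to 120 CPM in HA. The third, LOC113068517, varied less, from 30.2 to 47.6 CPM over all libraries. Mean levels were 33.2, 31.5 and 15.6 FPKM, and reads may be shared among copies.

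The 2 HSP90-beta copies shown here differed from each other in the order of libraries. LOC113068541 was lowest in LA1 and HA2, at 12.9, 59.8 and 35.8 CPM in LA and 30.8, 15.8 and 22.9 CPM in HA, whereas LOC113068555 on the same linkage group was highest there, at 47.5, 8.76 and 25 CPM in LA and 14.8, 46.6 and 31.1 CPM in HA. In MA they ranged from 34.7 to 53.9 and from 11.1 to 19.0 CPM. In LA and in HA, the highest library for one copy was thus the lowest for the other.

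The 2 UNC45 genes code for the chaperones that fold myosin heads with HSP90. The muscle form unc45b had a mean of 73.5 FPKM and the general form unc45a 0.275 FPKM. unc45b stood at 392, 170 and 250 CPM in LA, 166, 286 and 224 CPM in MA and 138, 345 and 221 CPM in HA, with the highest value of each diet in the library of lowest mapped share. Its log2 fold change was -0.26 (SE 0.39) for MA against LA and -0.21 (SE 0.39) for HA against LA, far inside the spread of libraries.

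**Figure D4:**
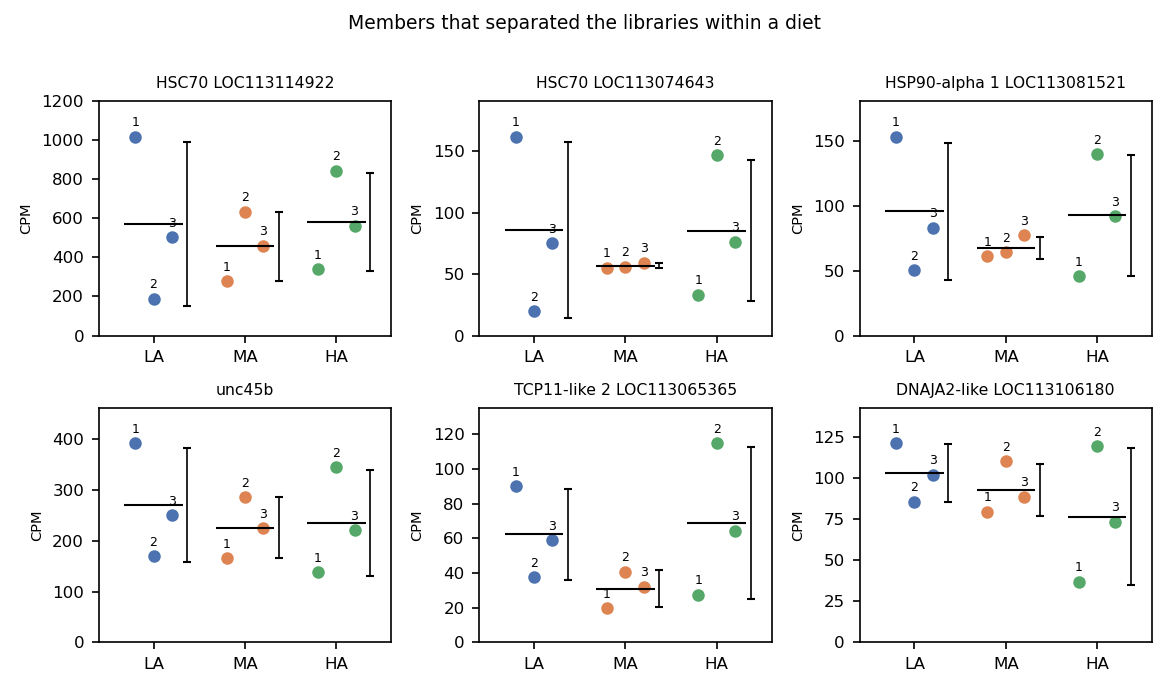
CPM (vertical axes, starting at 0) of 6 members that differed strongly between libraries of a diet, in the 3 libraries of each diet (numbered points), with mean and SD. In LA and HA the highest value in every panel is LA1 or HA2, for example 1019 and 844 CPM for the cognate LOC113114922.

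Across the list, 51 of 199 tested members (25.6%) were highest in the library of lowest mapped share in all 3 diets, where 13.1% of all tested genes were. Only 15 (7.54%) were lowest there in all 3 diets, against 12.4% of all genes. The former held both UNC45 genes, 6 of 18 HSP70 genes, 5 of 19 CCT genes and 21 of 95 J-domain genes. The part of mapping or RNA quality in this was not tested.

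HSP110 and HSPA4, which release nucleotide from HSP70, had 8 genes of which 6 were tested. The leading copies, all named heat shock 70 kDa protein 4, were LOC113057848 (11.3 FPKM), LOC113078126 (9.67 FPKM) and LOC113063843 (2.74 FPKM). LOC113057848 ranged from 15.5 to 46.6 CPM in LA, wider than the 33.8 to 42.7 CPM of MA or the 24.9 to 45.8 CPM of HA. The activators of the HSP90 ATPase numbered 3, led by LOC113120919 (19.4 FPKM), LOC113117095 (2.33 FPKM) and LOC113060563 (0.376 FPKM). LOC113120919 was higher in HA (32.8, 48.5 and 39.1 CPM) than in MA (27, 28.5 and 31.3 CPM) without overlap, by 0.47 on the log2 scale (SE 0.28, adjusted p = 0.635).

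Cytosolic chaperonin CCT had 19 genes, all of them tested, and the leading copies were cct6a for subunit zeta (67.6 FPKM), LOC113066007 for epsilon (50.6 FPKM) and LOC113106615 for eta (45.5 FPKM). cct6a averaged 140 ± 31.5 CPM in LA, 138 ± 12.2 CPM in MA and 140 ± 26.5 CPM in HA (SD, n = 3). LOC113106615 shares 123 bases with hspa12b on the other strand, which had 606 reads against 13469. The median CCT difference was -0.06 for MA against LA and -0.10 for HA against LA.

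The CCT gene with the smallest p in both comparisons with LA was LOC113076710, a copy of subunit delta on an unplaced scaffold. It measured 28.1, 31.5 and 29.3 CPM in LA, 18.0, 18.6 and 16.3 CPM in MA and 18.0, 20.9 and 17.8 CPM in HA. Both supplemented diets lay below LA without overlap, at log2 fold changes of -0.75 (SE 0.16, adjusted p = 0.148) and -0.65 (SE 0.16, adjusted p = 0.723), and the first was called by DESeq2 and with neither LA1 nor HA2 in the fit. Leukocyte markers also stood higher in LA (76.0 to 192 CPM, against 64.3 to 69.0 CPM in MA and 66.2 to 68.0 CPM in HA), with 11 of 62 genes tested and 32 copies of the macrophage mannose receptor at 0. Their part in this difference was not tested.

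Mitochondrial HSP60, the chaperonin of the mitochondrial matrix, had 3 genes. LOC113053149 led with 8.24 FPKM, ahead of LOC113108638 (1.57 FPKM) and LOC113108448 (0.617 FPKM). It ranged from 11.3 to 29.4 CPM in LA, 16.9 to 21.5 CPM in MA and 19.5 to 30.4 CPM in HA, and no HSP60 gene separated any pair of diets.

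J-domain proteins formed the largest class, with 113 genes of which 95 were tested. Median log2 fold changes were -0.01 for MA against LA, 0.14 for HA against LA and 0.14 for HA against MA. Counts at an unadjusted p under 0.05 were 4 higher and 5 lower, 5 higher and 3 lower, and 9 higher and 1 lower. These are 9.47%, 8.42% and 10.5% of the class, close to the 11.4%, 6.22% and 9.97% of all genes. The most abundant were DNAJA2, a main partner of cytosolic HSP70, with LOC113106180 at 43.1 FPKM and LOC113051691 at 32.4 FPKM, and the DNAJB6 copy LOC113106142 at 17.3 FPKM. The former DNAJA2 copy spread 3.24-fold within HA, from 36.9 to 120 CPM, and the latter stayed between 63.2 and 78.1 CPM in all libraries.

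The DNAJB6 copy LOC113053567 (chromosome 34, 23211568 to 23219939, plus strand) had the second smallest p for MA against LA. DNAJB6 suppresses aggregation and in humans is mutated in a limb-girdle muscular dystrophy. Levels were 6.54, 6.06 and 5.81 CPM in LA, 11.8, 18.2 and 15.3 CPM in MA, and 9.16, 8.60 and 9.80 CPM in HA. The 3 diets did not overlap, in the order LA, HA, MA. Within MA the order of libraries was that of the nerve markers, and MA2, the highest, had the lowest mapped share. The part of either was not tested. The log2 fold changes were 1.30 (SE 0.20, adjusted p = 0.0604) for MA against LA, 0.58 (SE 0.20, adjusted p = 0.723) for HA against LA and -0.71 (SE 0.20, adjusted p = 0.288) for HA against MA. Its adjusted p for MA against LA ran from 4.33e-05 to 1.00 over 18 alternative settings and passed in 7, among them the fits without LA1 (adjusted p = 0.0285) and without MA1 (adjusted p = 0.0218). Of the LA and MA libraries, LA1 and MA1 were those closest to the other diet. Without MA2 the difference was 1.13 (adjusted p = 0.134).

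The most abundant DNAJB6 copy had another order. LOC113106142 measured 50.9, 88.8 and 75.2 CPM in LA, 55.8, 70.5 and 69.3 CPM in MA and 22.6, 58.3 and 40.8 CPM in HA, with overlap between MA and both other diets. Among DNAJB1 copies, partners of HSP70 in the heat shock response, LOC113067680 was higher in MA than in LA by 0.72 (SE 0.21, adjusted p = 0.249) and LOC113074514 was lower, at 10.04, 4.80 and 10.6 CPM against 12.7, 13.5 and 13.6 CPM.

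The J-domain genes with the smallest p for HA against LA were of low or middle abundance. dnajb5, which in mammals acts with HSP70 in heart and muscle, measured 17.2, 14.3 and 13.2 CPM in LA, 9.34, 20.5 and 16.3 CPM in MA and 33.3, 20.7 and 25.7 CPM in HA. HA exceeded both other diets without overlap, by 0.84 (SE 0.29, adjusted p = 0.723) over LA. LOC113047787, a DNAJC2 copy, was higher in HA by 0.83 (SE 0.30), and LOC113056296 (DNAJC9, a histone chaperone partner) and LOC113054900 (DNAJC14) were lower by -0.71 (SE 0.23) and -1.06 (SE 0.36). None of these passed, each with an adjusted p of 0.723 to 0.725.

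Another DNAJC2 copy, LOC113048502 on chromosome 29, was called only in fits without LA1. It measured 6.11, 1.97 and 2.58 CPM in LA, 5.88, 8.17 and 5.77 CPM in MA and 6.23, 5.03 and 7.73 CPM in HA. LA1 lay within the range of the other diets, while LA2 and LA3 lay below all their libraries. With all libraries the log2 fold changes were 0.89 (SE 0.39, adjusted p = 0.428) for MA and 0.83 (SE 0.39, adjusted p = 0.831) for HA over LA. With neither LA1 nor HA2 they were 1.54 (adjusted p = 0.0205) and 1.62 (adjusted p = 0.0354). It shares 7556 bases with a gene for a CD22-like receptor on the same strand, which had 4 reads against 761.

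Small heat shock proteins held 38 genes, of which 25 had any read and 16 were tested. The alpha-crystallin B copy LOC113114933 (180 FPKM), the HSP30 copy LOC113047293 (73.0 FPKM) and the HSPB11 copy LOC113038749 (68.5 FPKM) led. Alpha-crystallin B guards desmin and titin in muscle, and HSP30 is a group of small heat shock proteins of fish and frogs. LOC113114933 overlapped among all diets, at 275, 229 and 244 CPM in LA, 142, 305 and 218 CPM in MA and 261, 208 and 218 CPM in HA. No alpha-crystallin A gene had a read.

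A minor alpha-crystallin B gene and its neighbour were highest in MA. LOC113082027 (chromosome 5, 23816698 to 23819301, minus strand) stood at 1.99, 1.91 and 2.65 CPM in LA, 4.16, 12.8 and 8.62 CPM in MA and 2.93, 2.13 and 3.14 CPM in HA. MA lay above both other diets, with MA2 highest, as it was for nerve markers, whose part was not tested. The log2 fold change was 1.96 (SE 0.39, adjusted p = 0.125) for MA against LA and -1.64 (SE 0.38, adjusted p = 0.218) for HA against MA, and DESeq2 called both. Without MA1, the MA library closest to the other diets, they were 2.29 (adjusted p = 0.0195) and -1.96 (adjusted p = 0.0375). Over 18 alternative settings the 2 differences ran from 1.54 to 2.29 and from -1.96 to -1.22, and passed in 3 and 2. LOC113082036 (HSPB2, a small heat shock protein of muscle) starts 293 bases away on the opposite strand, in the head-to-head arrangement known from mammals. It measured 65.7, 54.6 and 58.2 CPM in LA, 93.1, 75.2 and 82.1 CPM in MA and 52.2, 66.1 and 57.2 CPM in HA, and MA again lay above the others, by 0.49 over LA (SE 0.18, adjusted p = 0.347). Here MA2 was the lowest MA library, whereas nerve markers were highest in it, and their part was not tested.

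The matching alpha-crystallin B copy on chromosome 30, LOC113049801, had a mean of only 0.386 FPKM. It was at 0.284, 0.132 and 0.359 CPM in LA, 1.41, 1.69 and 0.744 CPM in MA, and 0.672, 0.895 and 0.942 CPM in HA. LA lay below both diets, at a fitted 2.28 (SE 0.53) for MA and 1.67 (SE 0.54) for HA. The gene passed the filter on low counts only through the diets in which it is high, so its adjusted p is not used. The HSPB11 copy LOC113038749 overlapped between LA and MA, at 68.9, 37 and 48.5 CPM against 61.8, 113 and 93.6 CPM. It shares 960 bases with a gene for mitotic-spindle organizing protein 2 on the same strand, so its reads are uncertain.

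HSPB7, a small heat shock protein of the sarcomere, had 5 copies, none of which passed the filter. LOC113068912, on an unplaced scaffold, measured 0.142, 0.0658 and 0.215 CPM in LA, 0.576, 6.88 and 3.97 CPM in MA and 0.549, 0 and 0.251 CPM in HA. MA2 and MA3 thus stood far above all other libraries, while MA1 was close to HA1. The gene passed the filter only when MA1 was left out, through the libraries in which it is high, so the call it then had is not used.

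Of the 4 tested HSP30 copies, 2 were lower and 2 higher in HA than in MA. The former were the more abundant ones. LOC113098751 on an unplaced scaffold stood at 8.24, 38.4 and 28.1 CPM in LA, 11.2, 28.7 and 21.0 CPM in MA and 4.09, 2.96 and 4.08 CPM in HA. HA lay below both other diets, and LA1 was the lowest of LA. The log2 fold changes were -2.74 (SE 0.54, adjusted p = 0.723) for HA against LA and -2.45 (SE 0.54, adjusted p = 0.198) for HA against MA. Over 18 alternative settings the adjusted p for HA against LA ran from 0.00105 to 1.00 and passed in 3, among them the fit without LA1, where the difference was -3.15 (adjusted p = 0.00648).

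LOC113047293 (chromosome 28, 24401323 to 24402180, plus strand) measured 56.5, 89.5 and 73.0 CPM in LA, 122, 49.2 and 85.9 CPM in MA and 36.8, 26.6 and 33.6 CPM in HA. Again HA lay below both, by -1.18 (SE 0.32, adjusted p = 0.723) and -1.41 (SE 0.33, adjusted p = 0.216). Fibroblast markers were lower in HA than in MA as well, at 1340 to 1968 CPM against 2106 to 2721 CPM, with LA at 1442 to 2727 CPM and 2 collagen alpha-1(I) copies of 16 genes at 0. Against LA, muscle markers were lower in HA (311107 to 367813 CPM against 374521 to 391228 CPM), as were leukocyte markers (66.2 to 68.0 CPM against 76.0 to 192 CPM), both without overlap. The part of these markers in the HSP30 result was not tested.

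Another HSP30 copy, LOC113057413 (chromosome 38, 22591324 to 22592055, plus strand), had 6, 21 and 17 reads in LA, 1, 1 and 2 in MA and 100, 4 and 57 in HA. MA was below all other libraries, and HA2 was far below HA1 and HA3. The fitted log2 fold change for HA against MA was 5.17 (SE 1.10), and it rests on few reads in MA. Without HA2 it was 5.71. The gene passed the filter on low counts only through the libraries in which it is high, so its adjusted p is not used. Nearby, 11 HSP30 copies lie in tandem between 22118545 and 22147226. Of these 5 had no read, and the others together had 1, 22 and 18 reads in LA, 0 in every MA library and 31, 2 and 22 in HA. The tested copy among them, LOC113057387, was at least 12-fold lower in MA than in LA and at least 6.38-fold lower than in HA, against a floor of 3 reads over the MA group, but LA1 and HA2 were at 0 as well.

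**Figure D5:**
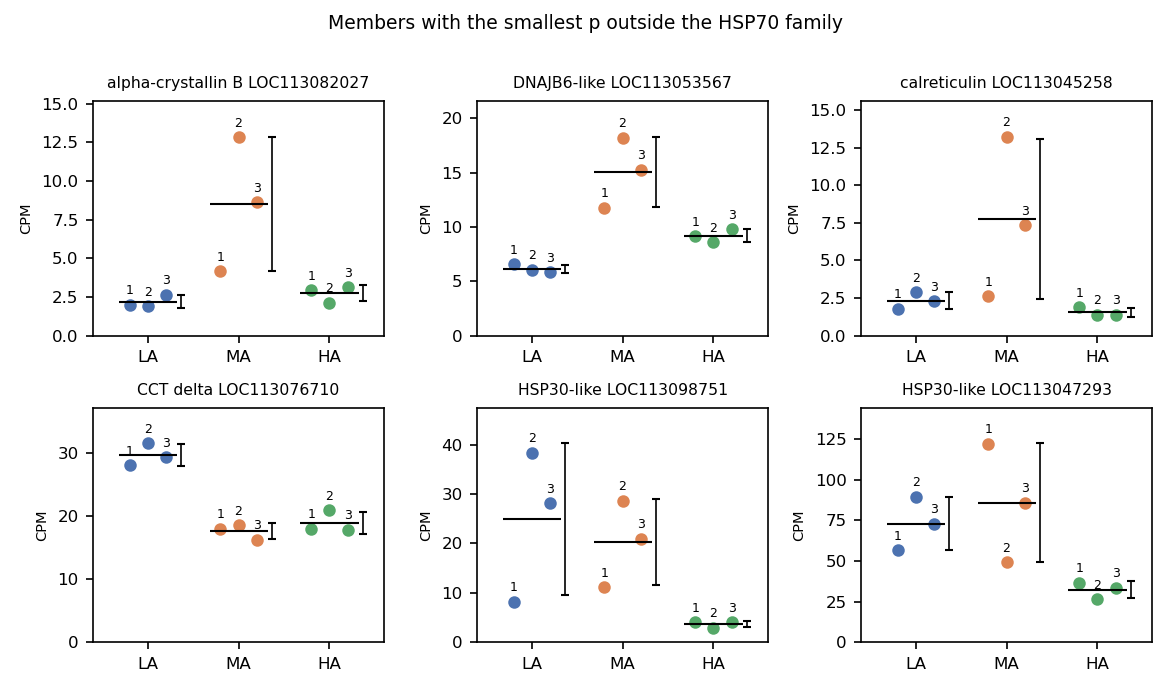
CPM (vertical axes, starting at 0) of 6 members outside the HSP70 family with small p, in the 3 libraries of each diet (numbered points), with mean and SD. MA has the highest mean for alpha-crystallin B, DNAJB6 and calreticulin copies, LA is highest for CCT delta, and HA is lowest for both HSP30 copies, at 2.96 to 4.09 CPM for LOC113098751.

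Calreticulin and calnexin genes, a class of chaperones of the endoplasmic reticulum, numbered 14, of which 13 were tested. Endoplasmin LOC113048316 (6.72 FPKM) and BiP LOC113070134 (18.5 FPKM), the latter outside the rule, are not counted here. Calreticulin LOC113039299 (8.12 FPKM), calnexin LOC113076566 (5.79 FPKM) and calreticulin LOC113076909 (3.42 FPKM) were the most abundant of the class. The class median was 0.42 for MA against LA and -0.12 for HA against MA. The main calreticulin copy was higher in HA, at 15.3, 14.3 and 16.5 CPM, than in MA, at 8.06, 11 and 9.62 CPM, by 0.68 (SE 0.22, adjusted p = 0.339).

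Of the 9 calreticulin copies, 3 were higher and 6 lower in HA than in MA. LOC113074975, a minor copy, had the same direction as the main one, at 1.24 (SE 0.51, adjusted p = 0.454), and the lower ones included the next 3. LOC113045258 (chromosome 27, 6848576 to 6854707) measured 1.78, 2.90 and 2.29 CPM in LA, 2.62, 13.2 and 7.32 CPM in MA and 1.89, 1.38 and 1.38 CPM in HA. HA lay below MA, by -2.31 (SE 0.51, adjusted p = 0.193), while MA1 overlapped with LA. For MA against LA the difference was 1.73 (SE 0.50, adjusted p = 0.243). Without MA1, the MA library that overlapped with LA, it was 2.14 (adjusted p = 0.0439). Over 18 alternative settings this difference ran from 1.09 to 2.14 and passed in 1. LOC113107071 on chromosome 8 gave 2.06, 2.57 and 1.72 CPM in LA, 2.94, 6.94 and 5.58 CPM in MA and 1.71, 2.34 and 1.57 CPM in HA, with MA above both other diets, by 1.28 (SE 0.35, adjusted p = 0.226) over LA. Another copy, LOC113111259 on chromosome 2, reached 8.11 CPM in MA2 and 5.34 CPM in MA3 and stayed at 1.38 to 2.63 CPM in the other libraries. In each of these 3 copies MA2 was highest. Nerve markers had the same order of MA libraries, MA1, MA3 and MA2 from low to high, and their part was not tested. MA2 was also the MA library of lowest mapped share. With library 3 mostly between libraries 1 and 2, few orders occur, so a shared order alone says little. Endoplasmin, the HSP90 of the endoplasmic reticulum, had LOC113048316 at 16 to 22.8 CPM in all libraries and a minor copy, LOC113057964, that was above LA in every MA library.

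Heat shock factors, the regulators of the family, had 9 genes and 6 tested. HSF1 copies LOC113109944 (13.8 FPKM), LOC113119949 (2.81 FPKM) and LOC113062031 (1.65 FPKM) were the most abundant. LOC113109944 measured 31.6, 22.1 and 27.1 CPM in LA, 29.7, 22.1 and 24.0 CPM in MA and 30.2, 41.1 and 35.6 CPM in HA. HA lay above MA, by 0.49 (SE 0.21, adjusted p = 0.470). The HSF2 copy LOC113071848 stood at 2.42, 2.30 and 2.22 CPM in LA, 2.43, 2.98 and 3.23 CPM in MA and 3.91, 3.37 and 4.02 CPM in HA. HA lay above both other diets, with 0.70 (SE 0.23, adjusted p = 0.723) for HA against LA. LA and MA nearly touched, at 2.42 CPM in LA1 and 2.43 CPM in MA1.

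The rule also caught 8 genes that share only a word of their name with chaperones, such as T-complex protein 11-like genes, named after a mouse testis locus. The 3 highest were LOC113065365 (17.7 FPKM), LOC113048176 (4.23 FPKM) and LOC113066840 (3.66 FPKM). LOC113065365 followed the libraries, with 89.9, 37.7 and 59.1 CPM in LA, 19.6, 40.8 and 32.2 CPM in MA and 27.5, 115 and 64.3 CPM in HA.

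Position set chaperone genes in pairs. The goldfish genome descends from a doubling in which chromosome n of one set corresponds to chromosome n plus 25 of the other, and 36 pairs of members share a name across such chromosomes one to one. In the 31 pairs with both copies tested, the more abundant copy exceeded the other 2.21-fold in the median, 18 pairs differed over 2-fold, and in 19 the same copy was higher in all 9 libraries. The widest gap was that of the cognates LOC113114922 and LOC113058379, at 208 and 1.74 FPKM. Endoplasmin copies stood at 0.980 and 6.72 FPKM, and DNAJC7 copies at 12.5 and 13.1 FPKM. Both copies of the alpha-crystallin B pair on chromosomes 5 and 30, and both of the calreticulin pair on chromosomes 2 and 27, had their highest mean in MA. These 2 pairs were picked after their values were seen, and the other pairs were not compared by diet. The chromosome 30 copy also passed the filter only through the diets in which it is high.

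Genes that work with chaperones but fall outside the rule numbered 140, of which 112 were tested, and edgeR called none in any comparison. At an unadjusted p under 0.05, 7 were higher and 7 lower for MA against LA, 1 and 0 for HA against LA, and 4 and 6 for HA against MA. These are 12.5%, 0.893% and 8.93% of the list, where all genes gave 11.4%, 6.22% and 9.97%. DESeq2 called 1, 0 and 1. Median log2 fold changes were 0.06, -0.01 and 0.02.

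The smallest p for MA against LA belonged to sarcalumenin LOC113065062, a calcium-binding protein of the sarcoplasmic reticulum caught through its likeness in name to calumenin. It measured 818, 926 and 850 CPM in LA, 550, 484 and 509 CPM in MA and 728, 740 and 722 CPM in HA. The 3 diets did not overlap, at -0.75 (SE 0.16, adjusted p = 0.148) for MA against LA. It was followed by LOC113058829, a copy of the disaggregase CLPB, at 0.96 (adjusted p = 0.225), and LOC113064060, prefoldin subunit 1, which passes actin and tubulin to CCT, at -0.78 (adjusted p = 0.225). The other sarcalumenin copies differed for MA against LA. LOC113067625 was at 0.68 (adjusted p = 0.372), LOC113051736 at 0.11 and LOC113039953 at -0.41.

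For HA against LA the smallest p was that of calumenin-A LOC113048006, at a fitted 1.37 (SE 0.43), from 0.329 to 0.574 CPM in LA and 1.01 to 1.53 CPM in HA. It had only 7, 5 and 8 reads in LA. The gene passed the filter on low counts only through the diets in which it is high, so its adjusted p is not used. The next in order of p were LOC113058829, at 0.56 (adjusted p = 0.821), and LOC113113553, a copy of the mitochondrial HSP70, at -0.33 (adjusted p = 0.839). The more abundant mitochondrial HSP70 copy, LOC113113418 (7.95 FPKM against 4.06 FPKM), stood at 0.07. For HA against MA, prefoldin subunit 3 LOC113105724 stood at -0.79 (adjusted p = 0.269). Cdc37 LOC113074235, which hands kinases to HSP90, was at 1.13 (adjusted p = 0.332). The oxidase of the endoplasmic reticulum, ero1b, was at -1.25 (adjusted p = 0.339). Other copies differed, with Cdc37 LOC113073826 at -2.11, Cdc37 LOC113039800 at 0.25 and the more abundant prefoldin 3 copy LOC113052136 at -0.09.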

How the data were processed

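Muscle RNA of 3 diets, with 3 libraries each, was sequenced as paired-end poly(A) libraries. The authors deposited raw read counts per gene and FPKM values per gene for the 9 libraries; aligner, counting tool, strandedness and the handling of reads that fit several genes: not given in the sources used here. Per the labels, DESeq2 was among the tools of the authors. CPM were computed from the deposited counts with library totals over the 23946 tested genes, multiplied by the TMM factors. Over all genes the totals were 13962770 to 17177610 counts. Library totals set the counting precision.

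Counts were fitted with edgeR 4.0.16 (R 4.3.3, TMM, filterByExpr, robust quasi-likelihood test) over all 9 libraries with a coefficient for each diet. P-values were adjusted by the Benjamini-Hochberg method over all 23946 genes tested, and genes were called at an adjusted p under 0.05. FPKM served only to compare levels between genes. Alternatives were RLE size factors, other filters, DESeq2 1.42.0, fits of 2 diets, a replicate block, a block for the rank of the mapped share, and fits without libraries. The test was also run on simulated counts with independent libraries, which does not cover the dependence seen among these libraries.

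Genes named were, per comparison, the 10 members of smallest p, the 3 of highest mean FPKM in each class, and 3 related genes of smallest p per comparison. The other HSP70, HSP90-beta, HSPB2, HSPB7, DNAJB1, DNAJC2, calreticulin, endoplasmin and HSP30 genes were named after their values were seen. Members and lists were chosen with earlier results of these data known. No sequences were analysed here. Whether libraries of a diet came from separate fish is not stated, so p-values measure the spread between these libraries, which may be partly technical.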

Additional observations from a re-analysis of the deposited data

How the results depend on the processing

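Under edgeR with all libraries, 0 members were called. For MA against LA, 3 were called with no filter, 2 with at least 10 counts in every library, 6 by DESeq2, 2 with the mapped-share rank block, 7 with neither LA1 nor HA2, and 0 to 5 when a replicate was left out. For HA against LA these were 1 by DESeq2, 2 with neither LA1 nor HA2, and 0 to 1. For HA against MA they were 2 with no filter, 10 by DESeq2, 2 with the rank block, 5 with neither library, and 0 to 2. For the 3 diets together they were 4, 12, 3, 9, and 0 to 4. Related genes called were 1 by DESeq2, 2 with neither library and 0 to 1 for MA against LA, and 1 by DESeq2 and 0 to 1 for HA against MA. Shares of all genes called are given above for DESeq2, the rank block and neither library, in comparisons of 2 diets. For the other alternative settings and tests they were not computed, so those counts cannot be set against all genes and describe no result about chaperones. Counts in several settings also hold genes that passed the filter only through the libraries in which they are high, as said above. The median log2 fold change of members ran from -0.0861 to 0.131 for MA against LA, -0.0373 to 0.220 for HA against LA and -0.0101 to 0.165 for HA against MA when a replicate was left out, and was 0.13 for MA against LA with neither LA1 nor HA2. The cause of these shifts was not tested. Of 536 alternative values of the 30 named differences, 48 newly passed the threshold and 488 kept their side and direction. None of the 30 had passed under edgeR with all libraries, so none could fall back. They were chosen for small p, which made a change of direction unlikely, so this tally does not measure stability. Replicate numbers did not pair the libraries (correlations of -0.600 to 0.273), and with the replicate block 0 members were called in each comparison.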
